A study of Mus musculus with 2 samples.

Results

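A set of 38 genes that control apoptosis or respond to p53 was followed in classically activated macrophages of Ninj1+/+ and Ninj1-/- mice. They are the BCL2 family, apoptotic caspases, death receptors with their adaptors, inhibitor of apoptosis proteins, and p53 with its ligase and targets. The 38 genes were chosen by symbol, and all 38 were in the deposited table of 17270 genes and passed the filter on low reads that kept 12872. Both groups were bone-marrow-derived macrophages (BMDMs) of mice aged 6 weeks. Their marrow was cultured for 16 hours, differentiated with the growth factor M-CSF for 7 days, and activated with lipopolysaccharide at 500 ng/ml plus interferon-gamma at 20 ng/ml. The groups differed in the Ninj1 alleles, and neither the strain background, the kind of Ninj1 deletion nor the length of activation is given in the sources used here. The stated aim was to relate loss of Ninj1, which encodes ninjurin 1, to macrophage activation.

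Each genotype was registered as 1 sample, and the table holds 2 columns per genotype, called wild-type columns 1 and 2 and knockout columns 1 and 2 here. The sources used here leave unsaid whether the 2 columns are different mice, different cultures or repeat libraries, so p-values measure only the spread between columns, which may be technical. Values are the authors' normalized counts, in which 1 read was worth 1.26 to 1.62 units, and the columns held 46798381 to 62684262 reads. Ninj1 itself was at 28850 and 31158 normalized counts in wild type and at 3519 and 4086 in the knockout, which is 12.7% of the wild-type level. All 10 macrophage markers were measured, and they summed to between 1003650 and 1095280 normalized counts in every column. Markers of B cells, mast cells and basophils, and erythroid cells summed to 0 to 51.4 normalized counts, those of neutrophils to 78.6 to 122, and those of T and NK cells to 250 to 339. The table held 5 of 8 listed B cell markers, 2 of 8 for mast cells and basophils and 3 of 6 for erythroid cells. It held 5 of 12 neutrophil markers and 7 of 10 for T and NK cells. Markers without a row do not enter these sums. Summed dendritic cell markers (8 genes, with Cd209a and Siglech at 0 throughout) were at 10726 and 9743 in wild type and 14602 and 15078 in the knockout. Most of that sum was Xcr1 and Ccr7, while Flt3 and Zbtb46 were at 0 to 18.1 in every column. Summed stromal markers (14 genes) were at 1735 and 2066 in wild type and 864 and 784 in the knockout. In such bulk RNA, fewer cells of a type and less RNA per cell cannot be told apart.

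Apoptosis by the mitochondrial route turns on the balance of BCL2 family proteins. Survival proteins hold the executioners BAX and BAK in check, and BH3-only proteins relieve that hold, after which cytochrome c leaves the mitochondria and assembles caspase 9 with APAF1. Death receptors start another route through caspase 8, and the transcription factor p53 raises transcription of members of both routes as well as of cell cycle inhibitors. In macrophages, inflammatory stimuli are known to raise survival genes such as Bcl2a1 and Cflar, and ninjurin 1 acts at the end of lytic death, where it ruptures the plasma membrane.

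Transcripts of 4 of the 38 genes rose in the knockout and none fell. They were the survival genes Bcl2a1a, Bcl2a1b and Bcl2a1d, by 1.38-fold, 1.29-fold and 1.36-fold, and the cytochrome c gene Cycs, by 1.44-fold. The other 34 genes, with the executioners, caspases, death receptors and p53 targets among them, did not pass the test. The test was limma, run on log2(normalized count + 1), with p adjusted by Benjamini-Hochberg over all genes kept, called at an adjusted p below 0.05, and every log2 ratio is knockout minus wild type. The 4 higher genes were 10.5% of the 38, where 1.67% of all genes kept were called higher and 1.24% lower. Among the 4 are the 3 near-identical Bcl2a1 copies, whose reads can be counted for one another. The 10.5% thus does not rest on 4 independent calls. At an unadjusted p below 0.05, 6 of the genes were higher and 1 was lower, against 10.3% and 9.45% of all genes. edgeR called the same 4 genes and no other, where it called 1.58% of all genes higher and 1.37% lower. DESeq2 gave an adjusted p to 7132 genes only, of which it called 4.88% higher and 2.64% lower. Of the 38 it gave one to 31, called the 3 Bcl2a1 genes among these and no other, and gave Cycs none. None of the 38 was called lower by any of the 3 tools. By limma, 0 of the 38 were called without wild-type column 1 or without either knockout column, and 3, the Bcl2a1 genes, without wild-type column 2.

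Over all 38 genes the ratios lay close to 0, with a median log2 ratio of 0.02 beside -0.00341 for all genes kept. There were 22 ratios above 0 and 16 below. Columns of the genotypes did not overlap for 13 genes on the higher side and 6 on the lower side, where the shares for all genes were 25.5% and 25.6%. Of the 34 genes that were not called, 31 had a 95% confidence interval of the ratio that lay within 1.5-fold in either direction. The exceptions were Bmf, Tnfrsf10b and Trp53inp1, and the interval of Bmf alone reached past 2-fold.

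**Figure D1:**
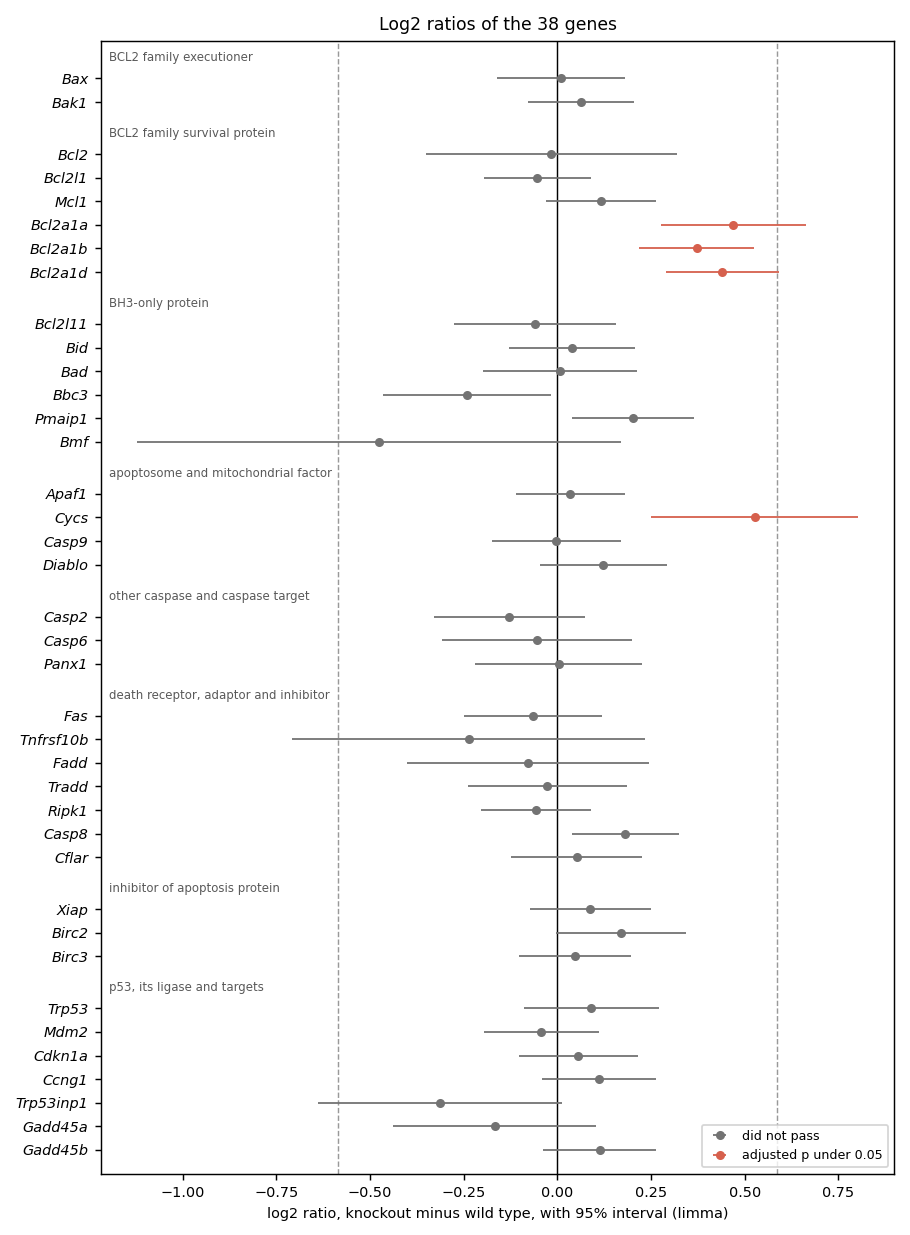
Log2 ratio (knockout minus wild type) of each of the 38 genes, grouped by role, with its 95% confidence interval from limma and dashed lines at 1.5-fold. The intervals of the 3 Bcl2a1 genes and Cycs lie above 0 and those genes alone are called; the widest interval is that of Bmf.

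The 3 Bcl2a1 genes are near-identical mouse copies of one gene for the survival protein A1, so their sequences set how reads can be told apart. The coding sequences are 519 bases each and differ at 12 positions in all, with 97.9% identity between Bcl2a1a and Bcl2a1b, 98.7% between Bcl2a1a and Bcl2a1d and 98.8% between Bcl2a1b and Bcl2a1d. The first 90 coding bases, all in exon 1, hold 6 of the 12. These bases are shown 5′ to 3′ on the coding strand, with positions that differ among the copies in capitals. They lie on GRCm38 (mm10) at chr9:88957051-88957140 on the + strand for Bcl2a1a, chr9:89199360-89199449 on the + strand for Bcl2a1b and chr9:88731630-88731719 on the - strand for Bcl2a1d.
Bcl2a1a: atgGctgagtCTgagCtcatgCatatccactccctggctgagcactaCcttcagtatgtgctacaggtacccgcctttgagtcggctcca
Bcl2a1b: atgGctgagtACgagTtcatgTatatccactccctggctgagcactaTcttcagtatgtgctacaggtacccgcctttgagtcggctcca
Bcl2a1d: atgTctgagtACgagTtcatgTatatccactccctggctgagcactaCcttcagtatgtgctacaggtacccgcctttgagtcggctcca

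The promoter windows of RefSeq, which reach from before the transcription start to shortly after it, were 98.0% to 99.2% identical over the 250 to 294 bases that aligned between copies, gaps not counted. The parts before the start are shown because the 3 genes moved together. Each is the 250 bases before the RefSeq start on GRCm38.p6, given 5′ to 3′ in the direction of transcription: chr9:88956670-88956919 (+) for Bcl2a1a, chr9:89199023-89199272 (+) for Bcl2a1b and chr9:88731851-88732100 (-) for Bcl2a1d. Capitals mark GAGGAAGT, a string with the GGAA core that ETS family factors such as PU.1 bind.
Bcl2a1a: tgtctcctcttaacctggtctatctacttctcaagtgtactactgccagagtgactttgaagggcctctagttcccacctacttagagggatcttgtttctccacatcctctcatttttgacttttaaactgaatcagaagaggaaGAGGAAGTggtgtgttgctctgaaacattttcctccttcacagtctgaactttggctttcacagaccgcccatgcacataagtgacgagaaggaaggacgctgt
Bcl2a1b: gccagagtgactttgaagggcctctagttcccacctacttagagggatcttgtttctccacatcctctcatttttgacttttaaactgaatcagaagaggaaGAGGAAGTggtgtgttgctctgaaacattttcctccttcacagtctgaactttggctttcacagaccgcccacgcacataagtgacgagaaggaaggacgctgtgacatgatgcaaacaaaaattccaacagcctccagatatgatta
Bcl2a1d: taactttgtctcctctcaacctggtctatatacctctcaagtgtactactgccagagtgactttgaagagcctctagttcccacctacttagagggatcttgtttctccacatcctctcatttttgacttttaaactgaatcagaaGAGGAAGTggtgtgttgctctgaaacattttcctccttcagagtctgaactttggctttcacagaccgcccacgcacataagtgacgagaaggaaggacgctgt

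The string GAGGAAGT occurred once in each of the 3 sequences, at 104, 148 and 104 bases before the start in Bcl2a1a, Bcl2a1b and Bcl2a1d. Both strands were searched in 32851 RefSeq promoters, of which 2.44% held it, as did 5 of the 34 members with a promoter entry. The 3 copies, in whose sequences the string was picked, are among these 5, so the count cannot be compared with the 2.44%. TTCNNNGAA, the core that STAT factors bind, and the NF-kB consensus were in none of the 3 windows, and stood in 7.02% and 7.25% of all promoters. The strings were picked with the sequences in view, and a match is a description of letters only.

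Bcl2a1b, the most abundant of the copies, was at 27159 and 29543 normalized counts in wild type and 35734 and 37605 in the knockout. Bcl2a1d was at 12894 and 13870 in wild type and 17502 and 18817 in the knockout. Bcl2a1a was at 3273 and 3895 in wild type and 4709 and 5188 in the knockout. For each copy both knockout columns lay above both wild-type columns. The mean of Bcl2a1b went from 28351 ± 1686 to 36669 ± 1323 (SD, n = 2 columns), which is a log2 ratio of 0.37 with an SE of 0.07 (limma adjusted p = 0.0179). Bcl2a1d went from 13382 ± 691 to 18160 ± 930, with a ratio on the log2 scale of 0.44 (SE 0.07) and a limma adjusted p of 0.00735. Bcl2a1a went from 3584 ± 440 to 4948 ± 338, where the log2 ratio was 0.47 with an SE of 0.09 (limma adjusted p = 0.0179).

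Stretches of 100 bases that also stand in another gene's transcript made up 56.8% of the windows of Bcl2a1b, 54.7% of Bcl2a1d and 43.5% of Bcl2a1a, so reads of one copy can be counted for another. A further gene, Gm29094, shares such windows with each copy, was not analysed here and is not in the sum that follows. Added together, which removes the split among them, the 3 copies were at 43325 and 47308 normalized counts in wild type and 57945 and 61610 in the knockout. The summed level rose by a log2 ratio of 0.40 (95% interval 0.24 to 0.56, limma adjusted p = 0.0152). The shares within the sum changed little between columns: Bcl2a1b made up 61.0% to 62.7%, Bcl2a1d 29.3% to 30.5% and Bcl2a1a 7.55% to 8.42%. The table has 5 further genes between the copies on chromosome 9, of which 3 passed the filter, and none of these was called.

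The calls of the copies depended on which columns entered, while the log2 ratios stayed above 0. Without 1 column at a time the ratio was 0.34 to 0.59 for Bcl2a1a, 0.31 to 0.43 for Bcl2a1b and 0.39 to 0.49 for Bcl2a1d. Without wild-type column 1 the limma adjusted p of Bcl2a1a, Bcl2a1b and Bcl2a1d was 0.152, 0.116 and 0.0663, without knockout column 1 it was 0.0835, 0.132 and 0.0588, and without knockout column 2 it was 0.119, 0.137 and 0.0734, while all 3 were called without wild-type column 2. Over all genes, 0.14%, 0.109% and 0.458% were called higher in those 3 settings and 2.76% without wild-type column 2. With each column's trend over GC content and transcript length removed the log2 ratios were 0.28, 0.19 and 0.26, and none was called (adjusted p = 0.088, 0.158 and 0.0543).

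**Figure D2:**
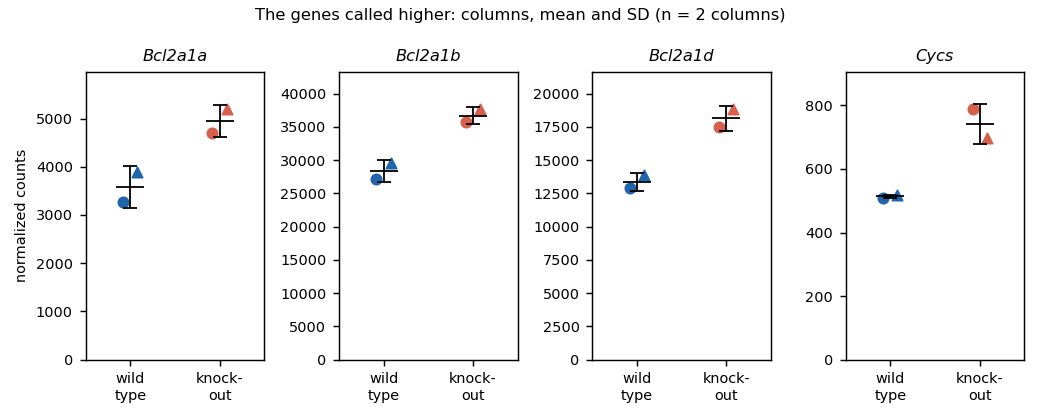
Normalized counts of Bcl2a1a, Bcl2a1b, Bcl2a1d and Cycs in each of the 4 columns, with the mean and SD of each genotype (n = 2 columns). In each gene both knockout columns lie above both wild-type columns. The higher wild-type and lower knockout values are 3895 and 4709 for Bcl2a1a, and 518 and 697 for Cycs.

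The other survival genes did not pass the test. Mcl1, which encodes a short-lived survival protein, was at 42501 and 41883 normalized counts in wild type and 46262 and 45177 in the knockout. The log2 ratio of Mcl1 was 0.12 (limma adjusted p = 0.372). Its knockout columns lay above the wild-type ones, by less than the test asks. Bcl2l1, which encodes BCL-XL, was at 9033 and 9076 in wild type and 8665 and 8776 in the knockout, a small shift to the lower side without overlap. Bcl2, the founding member of the family, was low at 376 and 347 in wild type and 361 and 354 in the knockout, with overlapping columns.

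Per kilobase of transcript, the 3 Bcl2a1 copies made up 76.5% and 78.3% of the summed survival gene level in wild type and 80.4% and 81.6% in the knockout. Mcl1 made up 18.2% and 16.8% in wild type and 15.6% and 14.5% in the knockout. Bcl2l1 made up 5.16% and 4.85% in wild type and 3.89% and 3.76% in the knockout, and Bcl2 at most 0.0768% in any column. The Bcl2a1 share was thus higher, and the Mcl1 and Bcl2l1 shares lower, in both knockout columns. These shares restate the Bcl2a1 rise, and the normalized counts of Mcl1 itself were higher, not lower, in both knockout columns. With 2 columns a group no exact test of a share can reach p below 0.05, and none was run.

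**Figure D3:**
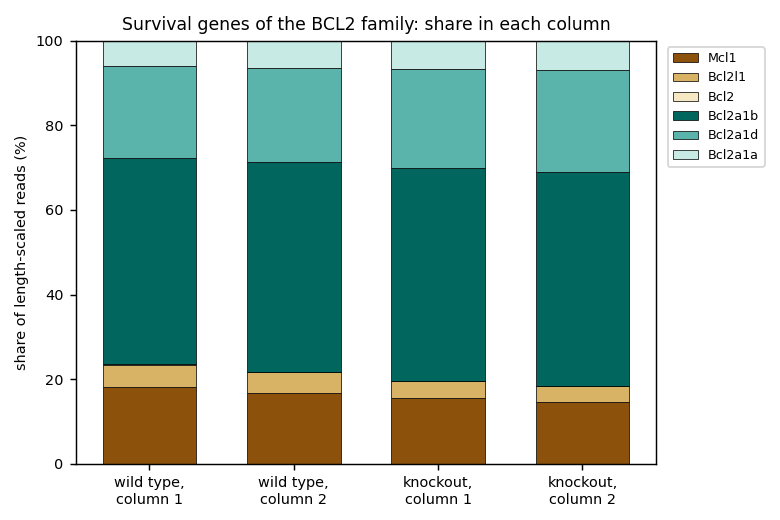
Share (%) of each survival gene in the summed per-length level of the 6 survival genes, one stacked bar for each of the 4 columns. The Bcl2a1 copies together take 76.5% to 81.6% and Bcl2 is too low to be seen.

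The executioners were level between genotypes. Bak1, whose protein BAK sits in the outer mitochondrial membrane, was at 19815 and 20356 normalized counts in wild type and 20969 and 20972 in the knockout. Its log2 ratio was 0.06 (SE 0.07, limma adjusted p = 0.641), a rise smaller than the spread allows to be called although the columns did not overlap. Bax, which moves to that membrane on activation, was at 10693 and 12214 in wild type and 10952 and 12093 in the knockout, with overlapping columns.

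Among the 6 BH3-only genes, which sense damage or loss of survival signals, none was called. Bbc3, which encodes the p53 target PUMA, was at 2241 and 1836 normalized counts in wild type and 1639 and 1794 in the knockout. Its knockout columns lay below the wild-type columns, and the log2 ratio was -0.24 (limma adjusted p = 0.218). Bbc3 was also the 1 gene of the 38 on the lower side with an unadjusted p below 0.05. Pmaip1, which encodes the p53 target NOXA, was at 5512 and 4990 in wild type and 5884 and 6185 in the knockout, higher without overlap (log2 ratio 0.20, adjusted p = 0.158). These p53-linked BH3-only genes thus had ratios of opposite sign, neither past the threshold.

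Bmf, whose protein is held at the cytoskeleton, was the lowest of all 38 genes, at 107 and 105 normalized counts in wild type and 65.6 and 87.6 in the knockout. Its log2 ratio of -0.48 (SE 0.30, limma adjusted p = 0.407) had a 95% interval from -1.12 to 0.17, which spans 0 and a fall of more than 2-fold. Bcl2l11, which encodes BIM, was at 13530 and 10228 in wild type and 11082 and 11484 in the knockout. Wild-type column 1 was the high one, and the knockout columns lay between the wild-type values. Bid, the target through which caspase 8 reaches the mitochondria, was at 4811 and 5404 in wild type and 5361 and 5117 in the knockout. Bad, a BH3-only protein controlled by growth factor signals, was at 1410 and 1516 in wild type and 1517 and 1423 in the knockout. Columns of Bid and Bad overlapped.

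Of the apoptosome genes, Cycs alone passed the test. Cycs, which encodes the somatic cytochrome c of the respiratory chain and the apoptosome, was at 510 and 518 normalized counts in wild type and 787 and 697 in the knockout. Both knockout columns were above both wild-type columns, and the means were 514 ± 5.74 and 742 ± 63.7 (SD, n = 2 columns). The log2 ratio was 0.53 (SE 0.13, limma adjusted p = 0.0433, edgeR adjusted p = 0.0417), close to the threshold. Windows of 100 bases shared with other genes made up 24.7% of its transcript, the share after those of the Bcl2a1 copies, and the 3 genes concerned (Gm10053, Gm10108 and Gm13772) were not analysed here. The 4 called genes were thus the 4 of the 38 with the largest shared part, and the part this plays in their ratios was not tested. The call of Cycs was lost without each column in turn (adjusted p = 0.0819 to 0.389), without the read filter (adjusted p = 0.0655) and after removal of the trend over GC content and length (adjusted p = 0.121), at log2 ratios of 0.42 to 0.61.

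Apaf1, the scaffold of the apoptosome, was at 13481 and 12538 normalized counts in wild type and 13300 and 13337 in the knockout. Casp9, the initiator caspase it activates, was at 2763 and 2724 in wild type and 2661 and 2815 in the knockout. Columns of both overlapped. Diablo, whose protein SMAC relieves caspases of their inhibitors, was at 3078 and 3280 in wild type and 3545 and 3376 in the knockout, higher without overlap but not called (log2 ratio 0.12).

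Neither the further caspases nor the caspase target Panx1 differed past the threshold. Casp2, an initiator caspase linked to p53 and cell division, was at 1806 and 1707 normalized counts in wild type and 1684 and 1531 in the knockout, lower without overlap (log2 ratio -0.13, SE 0.09, limma adjusted p = 0.482). Casp6, an executioner caspase, was at 928 and 941 in wild type and 822 and 984 in the knockout. Panx1, a membrane channel that caspases open by cleavage, was at 1321 and 1559 in wild type and 1452 and 1423 in the knockout. Columns of Casp6 and Panx1 overlapped.

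Within the death receptor route Casp8 came nearest to the threshold. Casp8, its initiator caspase, was at 10325 and 10475 normalized counts in wild type and 11977 and 11616 in the knockout. The columns did not overlap, and the log2 ratio was 0.18 (SE 0.07, limma adjusted p = 0.147). Cflar, which encodes the caspase 8 inhibitor FLIP, was the most abundant gene of this route, at 76766 and 66755 in wild type and 75368 and 72993 in the knockout, with both knockout values inside the wild-type range.

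Tnfrsf10b, the mouse death receptor for TRAIL, was at 234 and 175 normalized counts in wild type and 174 and 169 in the knockout. Wild-type column 1 stood above the other 3, the genotypes did not overlap, and the log2 ratio was -0.24 (SE 0.22, limma adjusted p = 0.590). Fas, the receptor for FAS ligand, was at 2476 and 2771 in wild type and 2477 and 2531 in the knockout. Columns of Fas overlapped. Fadd, the adaptor that binds caspase 8, was at 534 and 431 in wild type and 448 and 461 in the knockout. Tradd, the adaptor of TNF receptor 1, was at 1464 and 1318 in wild type and 1357 and 1371 in the knockout. Ripk1, the kinase at the branch between survival, apoptosis and necroptosis, was at 11995 and 11146 in wild type and 11209 and 11007 in the knockout. Columns of these 3 genes overlapped as well.

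The 3 inhibitor of apoptosis genes all had ratios above 0, and none was called. Birc2, which encodes cIAP1, was at 3560 and 3202 normalized counts in wild type and 3872 and 3723 in the knockout, higher without overlap (log2 ratio 0.17, SE 0.08, limma adjusted p = 0.262). Birc3, its inflammation-induced relative cIAP2, was at 21111 and 20141 in wild type and 20489 and 22148 in the knockout. Xiap, which blocks caspases by binding them, was at 10604 and 9349 in wild type and 10351 and 10821 in the knockout. Columns of Birc3 and Xiap overlapped.

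None of the 7 genes of the p53 group was called, and none had an unadjusted p below 0.05. Trp53, which encodes p53, was at 3038 and 3438 normalized counts in wild type and 3349 and 3534 in the knockout. Mdm2, the p53 target whose product is the ligase that degrades p53, was at 45953 and 42757 in wild type and 42195 and 43897 in the knockout. Columns of both overlapped. Cdkn1a, which encodes the cell cycle inhibitor p21, was at 73613 and 74225 in wild type and 74568 and 79182 in the knockout. Its log2 ratio of 0.06 had a 95% interval from -0.10 to 0.21. In reads per kilobase of transcript, scaled to library depth (RPKM), Cdkn1a was the highest of the 38 genes in wild type, with a mean level of 467 beside 456 for Bcl2a1b, whose columns of 438 and 474 lay on either side of it. In the knockout columns Bcl2a1b was higher, at 553 and 587 beside 454 and 486 for Cdkn1a.

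Ccng1, a cyclin gene that p53 induces, was at 11855 and 12317 normalized counts in wild type and 12471 and 13654 in the knockout. Gadd45b, a stress gene that NF-kB also induces, was at 15365 and 14092 in wild type and 15521 and 16321 in the knockout. Both lay on the higher side without overlap, each with a log2 ratio of 0.11. Gadd45a, its DNA-damage-induced relative, was at 636 and 699 in wild type and 596 and 591 in the knockout, lower without overlap. Trp53inp1, a p53 target that acts on p53 and on autophagy, was at 2629 and 1853 in wild type and 1522 and 2072 in the knockout. Its log2 ratio of -0.31 (SE 0.15, limma adjusted p = 0.270) was the largest of the group with all columns in, and the columns overlapped. Without wild-type column 1 it was -0.061 and without knockout column 1 -0.091, smaller than that of Gadd45a (-0.23 and -0.17), and it reached -0.57 without wild-type column 2.

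**Figure D4:**
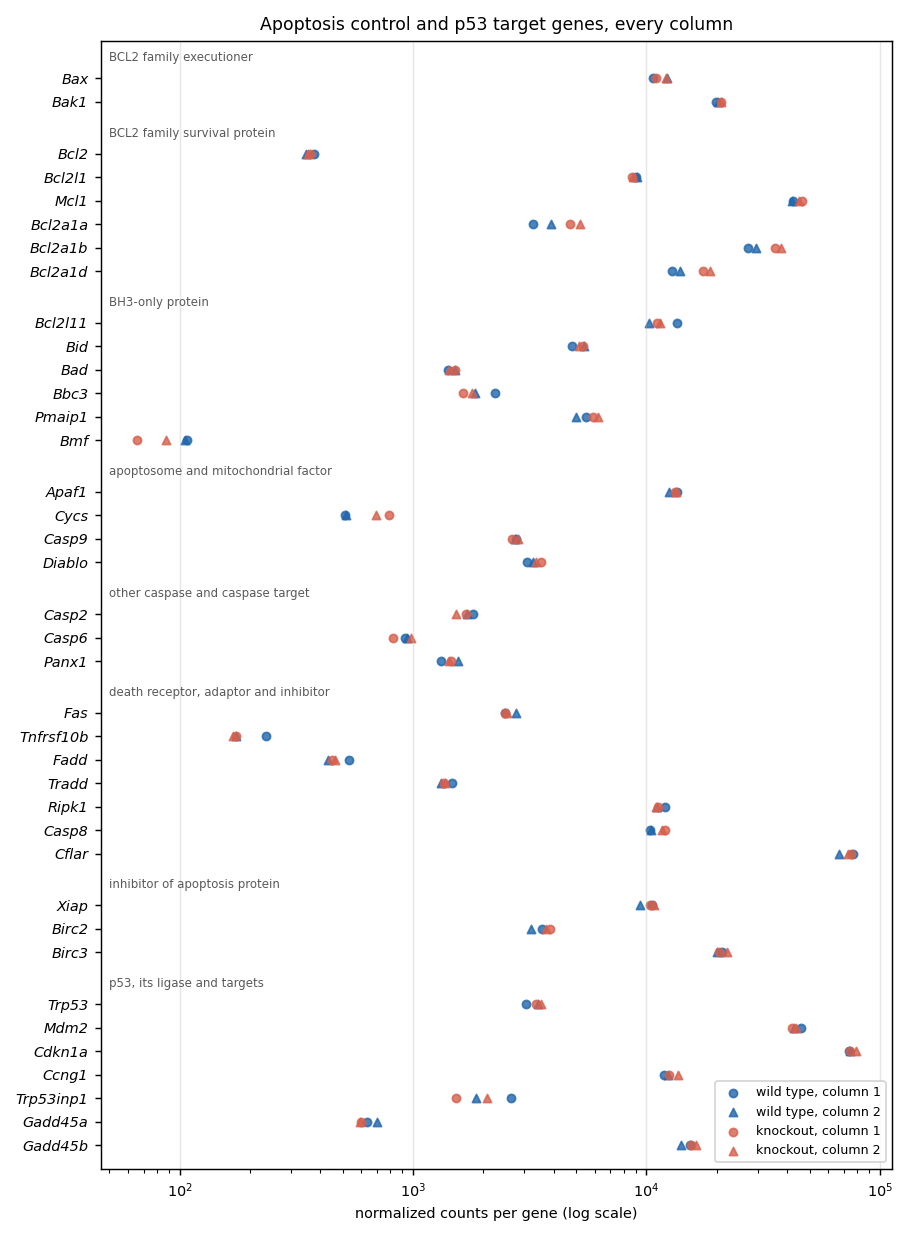
Normalized counts of the 38 genes in each of the 4 columns on a log axis, with 1 line per gene ordered by role. The points of a gene nearly coincide beside the range over genes, which runs from 65.6 for Bmf to 79182 for Cdkn1a.

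Genes of the same pathways outside the 38 were read for context. Of 26 other apoptosis genes that passed the filter none was called by limma or edgeR, or by DESeq2, which gave some of them no adjusted p. At an unadjusted limma p below 0.05, 3 were higher and 2 lower, against 10.3% and 9.45% of all genes. The median log2 ratio of the list was 0.05. Endog, a mitochondrial nuclease, had the largest absolute ratio among genes of that list with at least 100 reads in a column, 0.47 (limma adjusted p = 0.414). DESeq2 gave Endog no adjusted p.

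Of 27 other p53 targets 2 fell and none rose, where 1.24% of all genes kept were called lower and 1.67% higher. Ratios were below 0 for 22 of the 27 and for 6525 of the 12872 genes kept. At an unadjusted limma p below 0.05, 2 of the 27 were higher and 7 lower, against 10.3% and 9.45% of all genes. Sesn2, a sestrin that restrains mTORC1 and that ATF4 also induces, was at 4112 and 3445 normalized counts in wild type and 2542 and 2873 in the knockout (log2 ratio -0.48, limma adjusted p = 0.0205). Dram1, a lysosomal membrane protein gene, was at 13413 and 11917 in wild type and 9404 and 10680 in the knockout (log2 ratio -0.34, limma adjusted p = 0.0416). In both genes the knockout columns lay below the wild-type columns. By limma, 0 of the 27 were called lower with either wild-type column 1 or knockout column 1 left out, and 1 without knockout column 2, without the read filter or after removal of the GC and length trend, while 3 were called without wild-type column 2. Gdf15, a secreted stress factor, had the largest absolute ratio among genes of the list with at least 100 reads in a column, -0.59 (limma adjusted p = 0.0991). The list's median log2 ratio was -0.20, beside -0.00341 for all genes kept and 0.06 for the p53 group of the 38.

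None of 16 p53 regulators was called by limma or edgeR, or by DESeq2, which gave some of them no adjusted p. At an unadjusted limma p below 0.05, 0 were higher and 4 lower, against 10.3% and 9.45% of all genes. Under the same read limit the largest ratio was that of the kinase gene Hipk2, -0.28 (limma adjusted p = 0.145). Of 20 further TNF receptor complex and necroptosis regulators none was called by the 3 tools either. There 2 were higher and 2 lower unadjusted, against the same shares of all genes. Ripk3, the kinase that triggers necroptosis, had the largest ratio there under that limit, -0.26 (limma adjusted p = 0.124).

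Markers of other cells and of proliferation moved beside these results, and their part in them was not tested. Of 4 dendritic cell markers that passed the filter Xcr1 rose by a log2 ratio of 0.51 and Ccr7 by 0.64 (limma adjusted p = 0.00537 and 0.00565). Flt3 and Zbtb46 were too low to pass it. Among the macrophage markers Itgam and Mertk fell by 0.37 and 0.48 on the log2 scale (limma adjusted p = 0.0419 and 0.0285). Of 11 stromal markers kept, Col1a1, Col1a2 and Fn1 fell (limma adjusted p = 0.00116, 0.0035 and 4.50e-04). These 3 were low, Col1a1 at 149 and 136 normalized counts in wild type and 2.5 and 3 in the knockout, and DESeq2 gave them no adjusted p. Of the 11 ratios 10 were below 0, and that of Lum was 0.19 (limma adjusted p = 0.644). Of 22 proliferation genes Ccnd1, which encodes cyclin D1, rose by 0.30 and Mki67, a marker of cycling cells, fell by 0.52 on the log2 scale (limma adjusted p = 0.0479 and 0.0424), though edgeR did not call Ccnd1 (adjusted p = 0.0508).

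**Figure D5:**
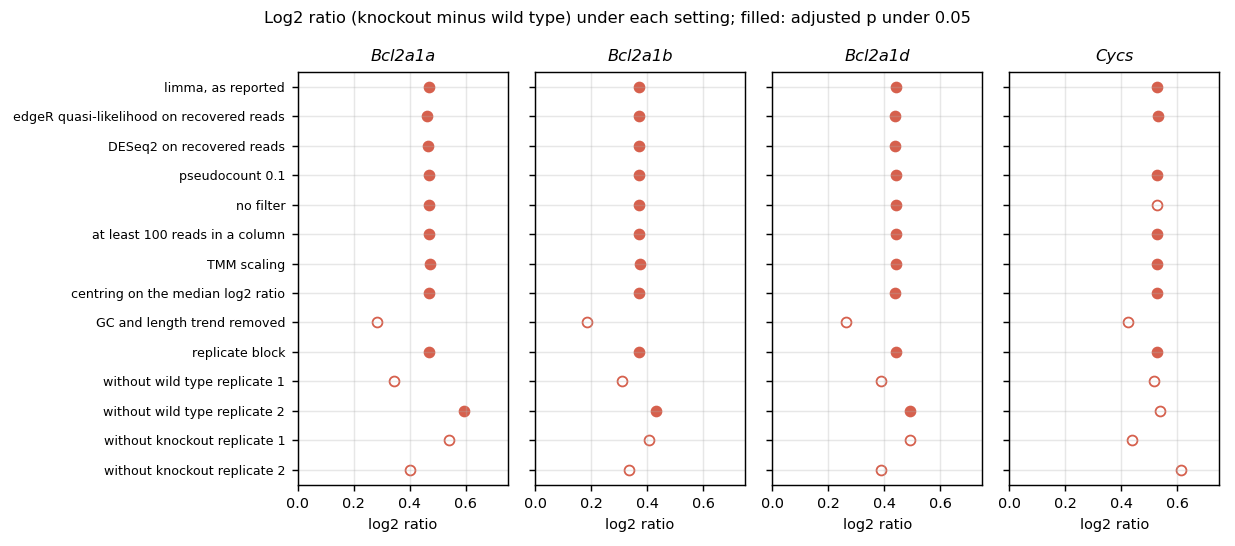
Log2 ratio of the 4 called genes under each way of processing, with filled points where the adjusted p is below 0.05. Cycs has no point for DESeq2, which gave it no adjusted p. All ratios lie above 0, and none of the 4 genes is called where wild-type column 1 or a knockout column is left out or the GC and length trend is removed.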

How the data were processed

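Libraries of mRNA came from a kit that keeps strand, per the labels' protocols. Values in the deposited table are a signal per gene, namely counts that the authors had divided by 1 factor per column; within 0.01 reads, 100% of values were whole multiples of a column's smallest value. The submitters' processing notes name mm10 and StringTie 1.3.044 without roles, and no aligner or counter is stated. Of low counts, 69.0% to 71.4% were even, so mates may be counted separately. The 1 row naming no gene (0.0272% to 0.0366% of a column) was left out.

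Genes needed 20 or more reads in some column. Two-sided limma 3.58.1 with an intensity trend was fitted to log2(normalized count + 1), with residual degrees of freedom of 2 and a prior of 12.2, Benjamini-Hochberg adjustment over all 12872 genes and calls at 0.05. The log2 scale understates changes of low genes. The alternatives tried were recovered reads tested by edgeR 4.0.16 (quasi-likelihood) or DESeq2 1.42.0, a pseudocount of 0.1, no filter (any gene with a read), 100 or more reads, TMM scaling, median centring, removal of trends over GC content and transcript length, the column number as a block, and 1 column left out at a time, where the spread of a lone column was taken from the other genotype. Lengths are of GENCODE transcripts on GRCm38. Copies were aligned with MAFFT 7.526, and promoters are RefSeq's for GRCm38.p6, found for 34 of the 38 genes. The fit was tested on simulated data with 200 changed genes, where limma recovered 91 of those changed 1.5-fold and 100 of those changed 2-fold. False calls there were 20 by limma, 13 by edgeR and 7 by DESeq2, and 0 by each tool without changed genes. Each simulation was drawn once with the same biological spread for every gene, and changed genes were only raised. Spread that differs from gene to gene was thus not covered. Changes below 1.5-fold, as in the 4 called genes, were not simulated. R 4.3.3 and Python 3.11.15 were used.

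The 38 genes and all lists were chosen with earlier results of these data known. Every gene is given with its columns. Full statistics go to called genes and to the largest absolute ratio of each role, and from wider lists the called genes and the largest ratio at 100 reads or more are named. Bbc3, Casp8, Mcl1 and Pmaip1 have a p as well, chosen after their values were seen. Some genes of the wider and marker lists are not reported here.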

Additional observations from a re-analysis of the deposited data

How the results depend on the processing

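Leaving out 1 column at a time, limma called 14 to 355 genes higher and 3 to 265 lower, 0 to 3 of the 38 higher, and 1 to 2 genes higher and 1 to 10 lower in the wider and marker lists. The summed Bcl2a1 log2 ratio was then 0.34 to 0.46, with an adjusted p of 0.108 without wild-type column 1, 0.112 without knockout column 1, 0.129 without knockout column 2 and 0.0133 without wild-type column 2. Removing the GC and length trend left 83 genes higher and 72 lower, 0 of the 38 higher and 5 wider-list genes lower, with the summed Bcl2a1 ratio at 0.22 (adjusted p = 0.117). DESeq2 called 348 genes higher and 5 wider-list genes lower, and without the read filter limma called 122 higher and 100 lower. With a block on the column number 322 genes were higher and 280 lower, and 4 of the 38 were higher; same-numbered columns deviated with a correlation of -0.0342, and with 2 pairs the numbers give no pairing, so these counts describe the setting only. The cause of these changes was not tested.

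Ratios near 0 changed sign. Panx1 was at -0.00414 by edgeR and -0.00325 by DESeq2, and removal of the GC and length trend put Bcl2 at 0.034 and Casp9 at 0.058. Leaving out 1 column gave log2 ratios of -0.086 to 0.11 for Bax, -0.076 to 0.043 for Bcl2, -0.26 to 0.14 for Bcl2l11, -0.045 to 0.12 for Bid, -0.045 to 0.059 for Bad, -0.018 to 0.087 for Apaf1, -0.044 to 0.037 for Casp9 and -0.18 to 0.074 for Casp6. They were -0.12 to 0.12 for Panx1, -0.15 to 0.016 for Fas, -0.23 to 0.074 for Fadd, -0.10 to 0.049 for Tradd, -0.0496 to 0.15 for Cflar, -0.00285 to 0.18 for Xiap, -0.00926 to 0.10 for Birc3 and -0.095 to 0.00945 for Mdm2. Bmf, with the lowest counts of the 38 genes, had the widest interval.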
